A study of Arabidopsis thaliana with 12 samples.

Results

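Transcription factor genes were followed in wild-type Arabidopsis thaliana of the ecotype Wassilevskija, in plants treated for 3 h in MS with 60 mM sucrose and in plants treated with water. Total RNA of 12 samples, 6 per group and numbered 1 to 6 in both, had been hybridised to arrays of 3439 probes with a value each. Because neither MS nor sucrose was given on its own, and because the duration of the water treatment is not labelled, the sugar, the medium and the treatment time cannot be told apart. The labels do not state whether the 6 samples of a group were separate plants, and p-values cover only the spread among arrays, part of which may be technical. The tissue is not given in the labels either, and none of 12 marker genes of root, flower, seed and leaf that were looked up had a probe of its own.

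The genes were chosen by words in their annotation. A gene was taken when a probe was paired with it alone and its names held a term for a class of transcription factor, such as AGAMOUS, MADS, MYB, homeobox, bZIP, WRKY, helix-loop-helix, zinc finger or DNA-binding. Names with RING, kinase or RNA were left out, as were the genes chr31 and APTX. No separate description field was used here, so all these words were looked for in gene symbols and synonyms. Of 691 genes with a probe of their own, 4 met the rule, and each of them had 1 probe. For 598 of the 691 the symbol is only a locus name, so transcription factors without a telling name are not among the 4. The 4 genes are AGL54 (AT5G27090), AGL103 (AT3G18650) and AGL26 (AT5G26880), which the annotation calls AGAMOUS-like genes, and NDX (AT4G03090), which it calls Nodulin Homeobox. The class of each gene was read from its name, and no sequence or description was used to check it. The names alone do not show that each of the 4, AGL26 included, encodes a transcription factor.

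MADS-box proteins bind DNA as dimers at a short A/T-rich element known as the CArG box. AGAMOUS itself specifies stamens and carpels, and the wider family includes regulators of flowering time, fruit, root and seed development. AGL54 and AGL103 are counted among the type I MADS-box genes, a class studied mostly in the female gametophyte and the endosperm. NDX encodes a homeodomain protein that binds single-stranded DNA and represses the antisense transcript at the flowering repressor gene FLC.

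AGL54 was the only gene of the 4 called higher in MS with sucrose after quantile normalization, and its difference exceeded those of the others under every scaling run. Its deposited intensity averaged 0.815 ± 0.345 in MS with sucrose and 0.0758 ± 0.0406 in water (SD, n = 6 each), a 10.8-fold ratio of the means. AGL103, AGL26 and NDX differed less on that scale, with mean intensities 1.39, 1.4 and 1.31 times those in water. After quantile normalization, 2 of the 4 genes passed an adjusted p of 0.05 (limma, adjusted over all 3439 probes), against 41.8% of all probes and 44.0% of the 691 genes, so the share of the 4 genes that passed is near the background. AGL54 passed as higher in MS with sucrose, as did 20.5% of all probes, and AGL103 passed as lower, as did 21.3%. AGL26 and NDX did not pass. The median difference of the 4 genes was -0.38 on the log2 scale, against 0 over all probes.

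**Figure D1:**
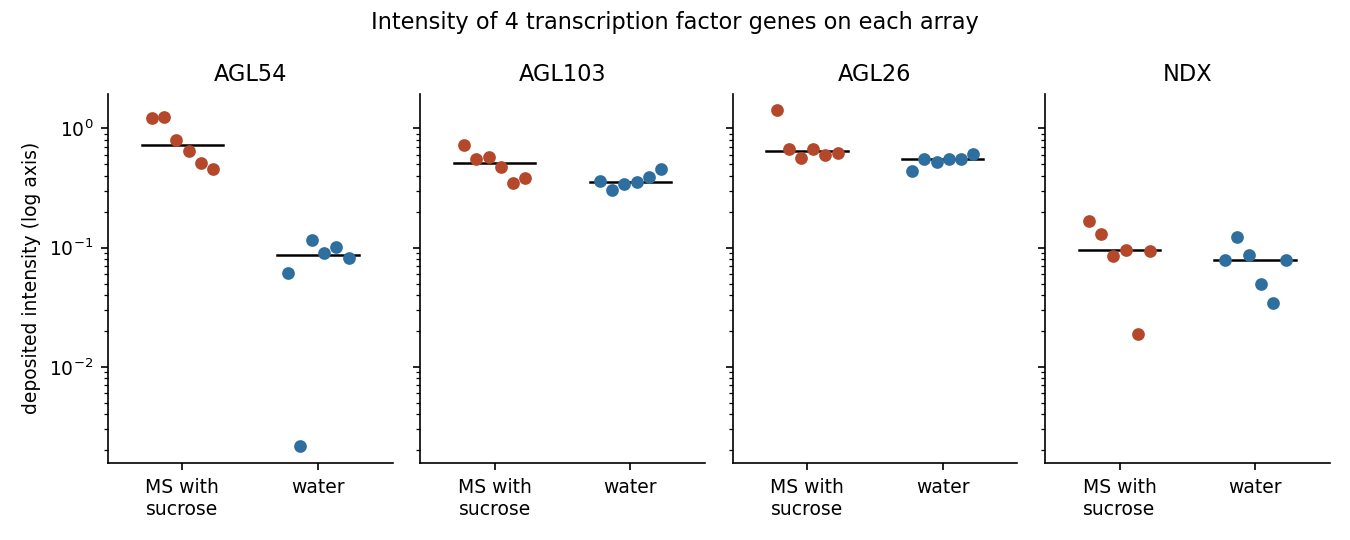
Deposited intensity (log axis) of AGL54, AGL103, AGL26 and NDX on each of 12 arrays, with the arrays in MS with sucrose left of the arrays in water, numbers 1 to 6 from left to right within a group, and a line at each group's median. The 6 AGL54 values in MS with sucrose lie between 0.46 and 1.25, above all 6 in water, and the groups overlap for the other 3 genes.

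The arrays differed in median level, and this bears on each direction given here. The median intensity of an array averaged 0.383 ± 0.0787 in MS with sucrose and 0.177 ± 0.00806 in water (SD, n = 6 each). Summed intensities were closer, from 3325 to 3461 in MS with sucrose and from 3172 to 3296 in water. The shift was therefore not 1 factor on all probes. With the values as deposited, the median of the differences of all probes was 0.68 on the log2 scale, and after quantile normalization it was 0. In MS with sucrose, array medians were 0.479 and 0.49 for numbers 1 and 2 and between 0.325 and 0.342 for numbers 3 to 6. After quantile normalization 705 probes were called higher and 731 lower, with the values as deposited 1848 higher and 227 lower, and with median centring 558 higher and 1039 lower. In MS with sucrose, arrays with consecutive numbers (1 and 2, 3 and 4, 5 and 6) resembled each other more than any other arrays did, and in water the 2 kinds of pairs overlapped slightly. The labels give no such pairs.

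AGL54 had deposited intensities of 1.22, 1.25, 0.794, 0.648, 0.517 and 0.46 on arrays 1 to 6 in MS with sucrose, against 0.0611, 0.00215, 0.117, 0.0904, 0.102 and 0.0824 on arrays 1 to 6 in water. Every array in MS with sucrose lay above every array in water, as was the case for 37.2% of all probes at deposited intensity. Arrays 1 and 2 were the highest in MS with sucrose and the lowest in water. Water array 2 lay under the floor of 0.0487, below which scaled values were set to the floor, and the other 5 water arrays were above it.

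The log2 difference of AGL54 was 2.44 ± 0.36 (SE, limma adjusted p = 0.00031), a 5.43-fold rise after normalization. Its 95% interval ran from 1.65 to 3.23. Among the 691 genes with a probe of their own, 2 had a larger rise, and 99.1% had a smaller difference in either direction. In MS with sucrose 80.8% of all probes had a lower mean intensity than AGL54, and in water 24.5% did.

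The rise of AGL54 was present at every array number, but its size was not the same. The deposited intensity in MS with sucrose was 20.0 times that in water for number 1, 6.8 times for number 3, 7.18 times for number 4, 5.07 times for number 5 and 5.58 times for number 6. No ratio is given for number 2, where the water array was at the floor. In fits of 2 arrays against 2, the log2 difference was 3.83 within numbers 1 and 2 (limma adjusted p = 0.029). It was 1.93 within numbers 3 and 4 (adjusted p = 0.038) and 1.56 within numbers 5 and 6 (adjusted p = 0.038). In MS with sucrose such arrays were the most alike, so these p-values may cover a narrower spread than that among all arrays. The same holds for such fits of the other genes. Numbers 1 and 2 are those with the highest array medians in MS with sucrose, and the part of median level in the larger difference was not tested. Without numbers 1 and 2 the difference was 1.74 (adjusted p = 0.0017). With consecutive numbers averaged, 3 against 3, it was again 2.44 with adjusted p = 0.033.

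**Figure D2:**
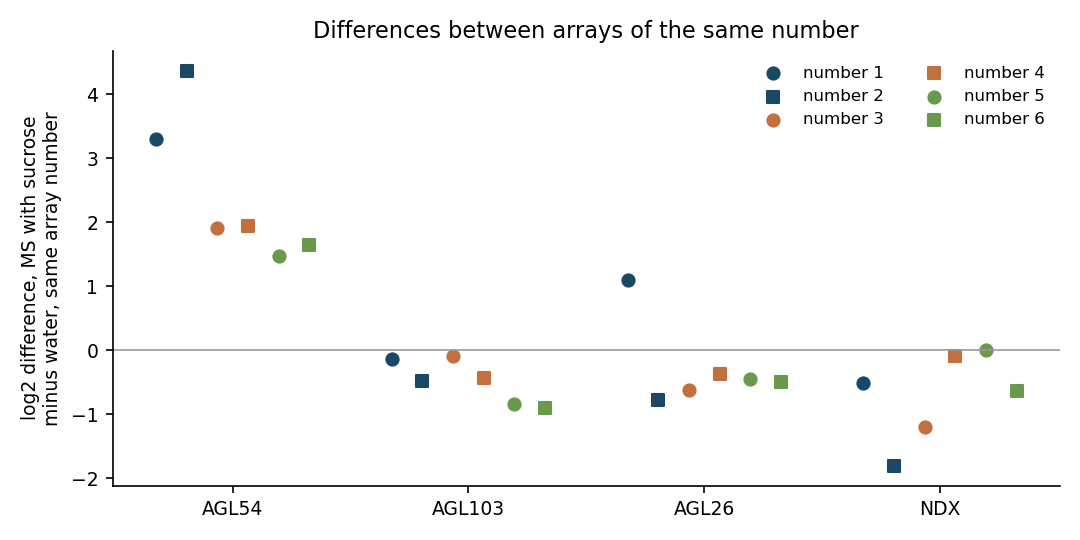
Log2 difference, MS with sucrose minus water, between normalized arrays of the same number for AGL54, AGL103, AGL26 and NDX, with 1 point per number and 1 colour for each 2 consecutive numbers. AGL54 lies above 0 at all 6 numbers, highest at numbers 1 and 2, and AGL26 lies above 0 at number 1 alone. For AGL54 the water array of number 2 was at the floor. For NDX both arrays of number 5 were at the floor, which puts that point at 0.

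AGL103, a second gene of the AGAMOUS-like series, had a direction that depended on the scaling. Its deposited intensities were 0.727, 0.557, 0.574, 0.473, 0.348 and 0.385 on arrays 1 to 6 in MS with sucrose, against 0.359, 0.306, 0.343, 0.354, 0.388 and 0.456 on arrays 1 to 6 in water. At numbers 1 to 4 the array in MS with sucrose was the higher one, by 2.03, 1.82, 1.67 and 1.34 times, and at numbers 5 and 6 it was the lower one, at 0.896 and 0.845 times the water array. The groups overlapped.

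After quantile normalization AGL103 was lower in MS with sucrose by 0.48 on the log2 scale (difference -0.48 ± 0.13, SE, limma adjusted p = 0.012, 95% interval -0.78 to -0.19), and lower at all 6 numbers. With the values as deposited the difference was 0.44 (adjusted p = 0.048), a call in the opposite direction that was still 0.24 below the median probe on that scale. With consecutive numbers averaged the call was lost (-0.48, adjusted p = 0.09), and with these numbers as a random block adjusted p was 0.054. Within consecutive numbers the difference was -0.31 for 1 and 2 (adjusted p = 0.46), -0.26 for 3 and 4 (adjusted p = 0.33) and -0.88 for 5 and 6 (adjusted p = 0.042).

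AGL26 carries the third AGAMOUS-like name, and its result rested on 1 array. Its deposited intensity was 1.42 on array 1 in MS with sucrose and lay between 0.562 and 0.669 on the other 5, against values from 0.442 to 0.615 with a median of 0.555 in water. Without array 1 the range in MS with sucrose overlaps that in water only between 0.562 and 0.615. After quantile normalization the difference was -0.27 ± 0.24 (SE, limma adjusted p = 0.43, 95% interval -0.80 to 0.26), so neither a rise nor a fall of that size was separated from 0. Number 1 gave 1.10 and the other 5 numbers lay between -0.78 and -0.37. Without array 1 of MS with sucrose the normalized difference was -0.50 and passed (limma adjusted p = 0.0015). That array stands out by its value in these same data, so this adjusted p is not a separate test. Without water array 1 the difference was -0.31 and did not pass (limma adjusted p = 0.41). At deposited intensity, however, the array in MS with sucrose was the higher one at all 6 numbers, by 1.02 to 3.21 times. The normalized fall is thus a fall relative to the other probes. With the values as deposited and all arrays the difference was 0.41 (adjusted p = 0.11).

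AGL26 and AGL54 lie on the same chromosome with 21 protein-coding genes between them in the reference gene table of assembly TAIR10.1, which was used for gene order alone. None of these 21 genes had a probe of its own, so whether genes near AGL54 moved with it was not tested.

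NDX, the homeobox gene, was dim in both groups, with 15.8% of all probes at a lower mean intensity in MS with sucrose and 24.3% in water. Its deposited intensities were 0.167, 0.131, 0.0844, 0.0961, 0.0189 and 0.0946 on arrays 1 to 6 in MS with sucrose, against 0.0781, 0.122, 0.0867, 0.0497, 0.0345 and 0.0795 on arrays 1 to 6 in water. The groups overlapped over most of their ranges. Array 5 was the lowest in both groups and was at the floor in both. The normalized difference was -0.71 ± 0.30 (SE, limma adjusted p = 0.079, 95% interval for this gene alone -1.37 to -0.05), and it did not pass. Without water array 5 it was -0.93 and passed (adjusted p = 0.01), and with a floor at the 10th percentile it was -0.42 (adjusted p = 0.065). With the values as deposited it was 0.39 (adjusted p = 0.34).

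**Figure D3:**
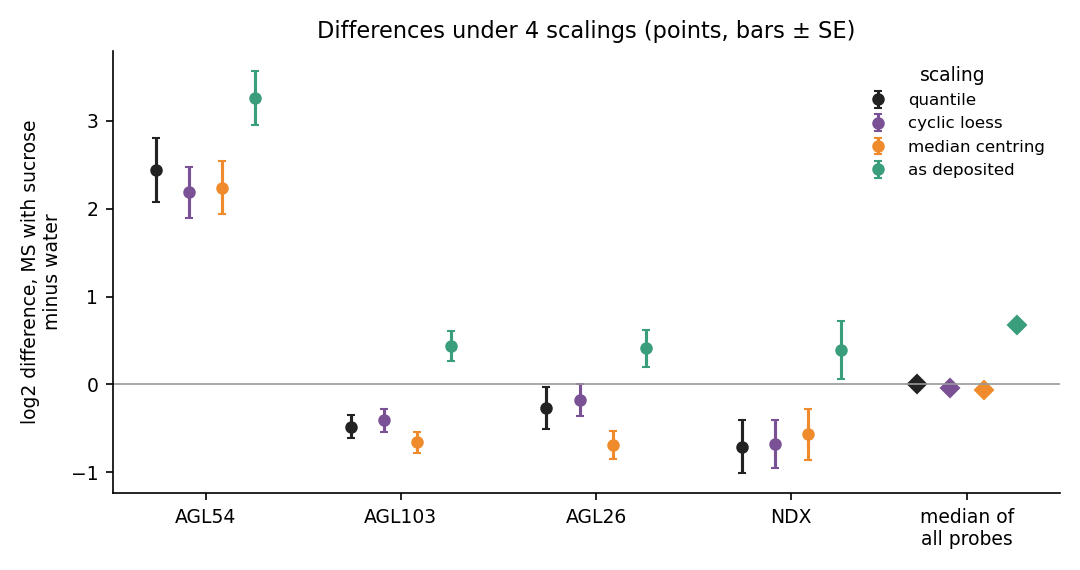
Log2 difference, MS with sucrose minus water (points, bars ± SE, n = 6 arrays per group), of AGL54, AGL103, AGL26 and NDX under 4 scalings, with the median of all 3439 probes as diamonds. AGL54 lies between 2.19 and 3.26 under all 4, and the other 3 genes lie below 0 under quantile, cyclic loess and median centring and above 0 as deposited, where the median probe is at 0.68.

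Measured against the median probe of each scaling, each of the 4 genes kept its sign. AGL54 stood 2.44, 2.23, 2.30 and 2.57 above that median on the log2 scale with quantile normalization, cyclic loess, median centring and the values as deposited. AGL103 stood below it by all 4 (-0.48, -0.37, -0.59 and -0.24), as did AGL26 (-0.27, -0.14, -0.63 and -0.28) and NDX (-0.71, -0.64, -0.51 and -0.29). These offsets were not tested, and the 4 scalings use the same arrays. As deposited, 40.3%, 39.0% and 38.3% of all probes had a lower difference than AGL103, AGL26 and NDX. After quantile normalization the shares were 23.6%, 32.4% and 15.7%. AGL54 passed the threshold under all 4 scalings, under which 41.8%, 44.7%, 46.4% and 60.3% of all probes passed, in the same order. AGL103 passed under all 4, as lower under quantile, cyclic loess and median centring and as higher with the values as deposited. AGL26 passed with median centring (-0.69, adjusted p = 0.0039) and under none of the other 3, and NDX under none of the 4.

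A ratio of 2 probes on the same array is unchanged when all values of that array are multiplied by 1 factor, apart from values at the floor, so the change of the ratio was compared between the groups for the 6 pairs of genes. It was taken before quantile normalization, which depends on intensity and gives other differences between these genes. It shows unequal change and does not tell which gene of a pair moved. The groups did not differ by 1 factor, so such a ratio is not protected from a shift that depends on intensity. In water the mean intensity was 0.0758 for AGL54, 0.0751 for NDX, 0.368 for AGL103 and 0.542 for AGL26. How far such a shift enters these ratios was not tested. AGL54 gained on each of the other 3. The log2 ratio of AGL54 to AGL103 was 0.61 ± 0.32 in MS with sucrose and -2.29 ± 0.59 in water (SD, n = 6 each), a change of 2.90 (exact permutation test, two-sided, p = 0.00216, adjusted over the 6 pairs 0.00433). The change against AGL26 was 2.93 and against NDX 2.81, with the same p-values by the exact permutation test. The floor holds down these sizes, and with no floor they were 3.55 against AGL103, 3.58 against AGL26 and 3.74 against NDX. For all 3 of these ratios the groups did not overlap, and with 924 ways to split the arrays no smaller p can be had from this exact test. All 3 share the AGL54 values, whose groups did not overlap either, so they are not 3 separate results. How often ratios of other probes did not overlap was not counted. This exact test was chosen after seeing the data. That test exchanges arrays across numbers. An exact permutation test that swaps the groups only between arrays of the same number gave p = 0.0312, the smallest its 64 swaps allow. Adjusted over the 6 pairs this was 0.0625, so the call is not kept with the replicate block. While the other 3 ratios stay far from that limit, no lower adjusted value is possible, so this test cannot decide the question. The 3 ratios were higher in MS with sucrose at 6 of 6 numbers. With consecutive numbers averaged, 3 against 3, the exact permutation test cannot go below 0.1, which all 3 ratios reached.

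Among the other 3 genes no change of ratio passed. The ratio of AGL103 to AGL26 changed by 0.03 (95% interval from the exact permutation test -0.35 to 0.40, adjusted p = 0.864), that of AGL103 to NDX by -0.09 (exact permutation interval -0.78 to 0.63) and that of AGL26 to NDX by -0.12 (exact permutation interval -0.78 to 0.55). These intervals leave room for changes of more than 0.3 in either direction, so the 3 genes were not shown to move alike.

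**Figure D4:**
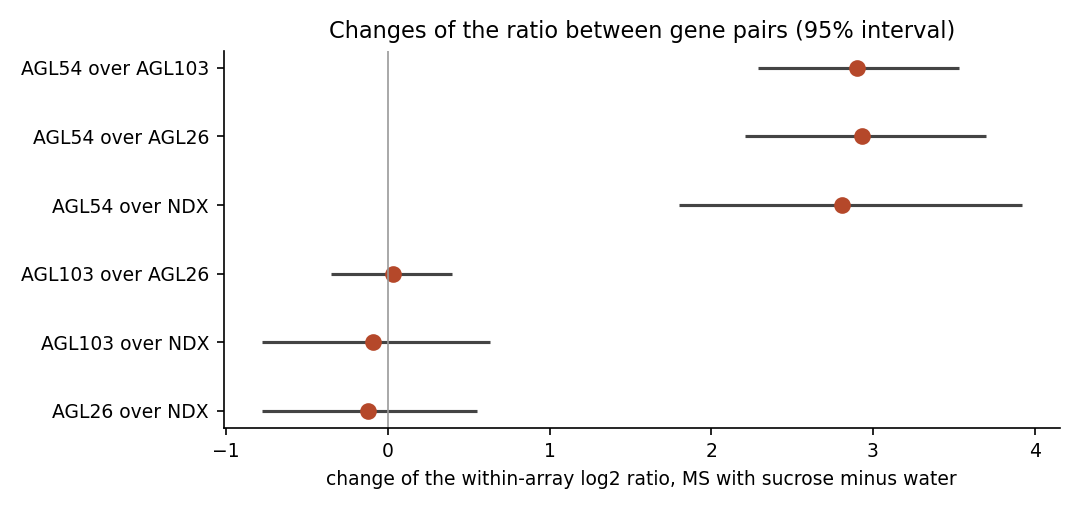
Change of the within-array log2 ratio between 2 genes, MS with sucrose minus water (points), with 95% intervals from the exact permutation test over 6 arrays per group. The 3 ratios with AGL54 on top lie between 2.81 and 2.93, and the intervals of the other 3 include 0.

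Other regulators of transcription gave little to set beside the 4 genes. A list of 24 loci was looked up for regulators of the sugar response. It holds the bZIP factors of the sucrose-controlled group, the anthocyanin regulators PAP1 and PAP2 and the ABI factors. None of the 24 had a probe of its own, and whether each regulates the sugar response was not checked. A search of gene names for other transcription terms found 1 more gene, TCP15 (AT1G69690), of the TCP family of growth regulators. TCP15 had intensities between 0.923 and 1.08 (median 0.975) in MS with sucrose, against 0.456 to 0.759 (median 0.493) in water. For TCP15, as for 37.2% of all probes, every array in MS with sucrose lay above every array in water. After quantile normalization its groups overlapped and the difference was 0.28 ± 0.11 (SE, limma adjusted p = 0.075). It passed as higher with cyclic loess (0.39, adjusted p = 0.027) and as deposited (0.86, adjusted p = 0.00015), where 60.3% of all probes passed. It also passed without numbers 1 and 2 (0.50, adjusted p = 0.0024) and without water array 2 (0.35, adjusted p = 0.018). With median centring it was at -0.23 (adjusted p = 0.32). Relative to the median probe, TCP15 stood at 0.28, 0.43, -0.17 and 0.18 with quantile normalization, cyclic loess, median centring and the values as deposited.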

How the data were processed

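The authors deposited 1 intensity per probe and array on a linear scale that ends at 100. The sources used here give neither the image processing nor the scaling behind these values. They name no genome build, so no coordinates are given. Groups and numbers came from the labels. The platform annotation paired 692 of 3439 probes with 1 gene. The members and lists were chosen with earlier results of these data known.

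Arrays were scaled to a common median, set to a floor of 0.0487 (the 5th percentile of positive values), log2 transformed, quantile normalized and tested with limma 3.58.1 (R 4.3.3) with Benjamini-Hochberg adjustment. The floor understates changes of dim genes. Ratios were tested with scipy 1.17.1 on scaled and floored values before quantile normalization, a test chosen after seeing the data. All members were named. The steps were run on simulated arrays with independent noise, no shift of median level and no correlation between numbers. There 35.0% of simulated log2 changes of 0.5 were called, 58.6% of those of 1.0 and 95.2% of those of 2.0. Such arrays cannot show how the steps behave under the level shift and correlation of the real ones. Figures used matplotlib 3.10.9.

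After group means were subtracted, arrays that share a number correlated across probes at 0.19 to 0.43, over 0.1 in every pair. The main fit had no block and does not use this pairing. A replicate block was tried as an alternative. Consecutive numbers within a group correlated at 0.942 to 0.948 in MS with sucrose and 0.959 to 0.974 in water (Spearman), against 0.847 to 0.923 and 0.933 to 0.961 for others. The number of arrays limits the precision.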

Additional observations from a re-analysis of the deposited data

Results flagged for a closer look

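Each of the 4 genes was searched for a lone array in both groups, 8 sets of 6 arrays, by the 95% limit of Dixon's test on the gap between the outermost array and its neighbour. It was passed in 2 sets, both of AGL26 and both at number 1, where chance alone sets apart about 1 set in 20. Array 1 in MS with sucrose had a normalized log2 value of 0.31, and the other 5 lay between -1.35 and -0.86, so the gap took up 0.703 of the range. Array 1 in water had -0.79, and the other 5 lay between -0.58 and -0.48, a gap of 0.676 of the range. The array was the highest in MS with sucrose and the lowest in water, and the cause was not tested.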

How the results depend on the processing

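Of 59 values of the 4 genes under alternatives that kept all or several arrays, 48 had the same sign and the same call, 4 lost the call, 3 gained one and 4 reversed. With 1 array left out, 46 of 48 had both and 2 gained a call. The reversals were AGL103 to 0.44, AGL26 to 0.41 and NDX to 0.39 as deposited, and AGL26 to 0.16 within numbers 1 and 2. TCP15 reversed to -0.23 with median centring and to -0.17 within numbers 1 and 2. AGL54 stayed past the threshold in every fit run, from 1.40 with 0.2 added to 3.83 within numbers 1 and 2. The replicate block gave 1383 called probes against 1436. It gave limma adjusted p = 0.0086 for AGL54 and 0.035 for AGL103 and changed no call of the 4 genes. With it the 3 ratios with AGL54 on top had adjusted p = 0.0625 by the exact permutation test. That was the smallest value they could reach beside the other 3 ratios. The number of called genes was 2, and 3 with median centring, without numbers 1 and 2 and within numbers 5 and 6, and 1 at an adjusted p of 0.01, with number pairs as a random block or averaged, and within numbers 1 and 2 or 3 and 4. It lay between 2 and 3 with 1 array left out, and called probes between 1320 and 1470. Over the array, called probes were 1597 with median centring, 1210 without numbers 1 and 2 and 997 at an adjusted p of 0.01. They were 1116 with number pairs as a random block, 1114 within numbers 1 and 2 and 750 within 3 and 4. With number pairs averaged they were 730, and within numbers 5 and 6 they were 674. Whether the number of called genes among the 4 departs from these backgrounds was not tested. With no floor, the change of the log2 ratio of AGL103 to NDX reversed to 0.19 and that of AGL26 to NDX to 0.16. With 1 array left out, the changes ran from -0.08 to 0.12 for AGL103 to AGL26, -0.30 to 0.13 for AGL103 to NDX and -0.27 to 0.09 for AGL26 to NDX. The cause was not tested. Each gene had 1 probe, so another probe could not be tried.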
